A study of Rattus norvegicus with 12 samples.

Results

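The genes described here act on small molecules: the esterases Aadac and Ces1d, the cytochromes P450 Cyp2b21, Cyp2f4, Cyp1a1 and Cyp1b1, the epoxide hydrolase Ephx1, and Upb1, Dpyd and Dpys of pyrimidine breakdown. They are 10 genes, of which 9 are among the 21405 named on the array, found by their current symbol or an older synonym. Aadac, Ces1d, Cyp2b21, Cyp2f4 and Upb1 were chosen by their measured changes in these same 12 arrays, so their values are given as a description without a test. The other 5 were not chosen in that way, but they and the wider gene lists were chosen with earlier results of these data known. Of the 10, 9 had a probe, 1 each, and 8 were detected widely enough to be tested. Ces1d was found through the older name Ces3, and no probe carries the name Dpyd.

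The cells were rat epidermal keratinocytes of the REK line, which stratify into an epidermis-like layer when lifted to the air on a collagen-coated insert, grown here without feeder cells. There were 4 groups of 3 cultures: control, betaine (10 mM for 11 days), UVB (30 mJ/cm2), and betaine with UVB at those same doses. Betaine started on day 4, UVB was given 24 h before collection, and the cultures were then 2 weeks old. RNA of the separated epidermal layer, 400 ng a culture, was hybridised to Illumina RatRef-12 arrays. REK is 1 established line, the arrays are few, and the labels leave unsaid whether the replicate cultures were grown independently; any p-value here reflects the spread among these cultures, which may be technical.

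Enzymes of this kind prepare lipophilic compounds for removal. P450s insert oxygen, many of them using electrons passed on by the reductase Por. Epoxide hydrolases open the reactive epoxides that can result. Carboxylesterases and the arylacetamide deacetylase split ester and amide bonds of drugs and lipids. Cyp1a1 and Cyp1b1 are classical targets of the aryl hydrocarbon receptor, a ligand-activated factor that binds DNA with Arnt and is held in check by Ahrr; in skin, UVB can form ligands of this receptor from tryptophan. Uracil and thymine are broken down in turn by Dpyd, Dpys and Upb1, the last of which releases beta-alanine from uracil. Most of these enzymes are best known from the liver, while keratinocytes hold a set of their own.

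Levels are log2 intensities after background correction and quantile normalization (neqc), and a level of one probe cannot be set against that of another. A probe counted as detected on an array at a detection p-value under 0.05. The lowest detected level on an array was 5.55 to 5.64. On each array 46.0 to 47.8 percent of the probes were detected. Of 10 keratinocyte markers on the array, 9 were detected on all 12 arrays, and the probe for Loricrin on none. Of 8 hepatocyte markers, 5 were detected on no array, among them Alb, Ttr and Apob, while Serpina1, Tf and Fgb were detected on at least 3. Of the other lists, 5 of 6 fibroblast, both endothelial, 2 of 4 melanocyte (Tyrp1 and Tyr), 2 of 4 immune (Ptprc and Cd74) and 2 of 5 sebocyte markers (Krt79 and Mc5r) were also detected on no array. Detected on all 12 were the melanocyte markers Pmel and Mlana, the immune markers Cd68 and Cd3e and the sebocyte markers Scd and Awat2, and Col3a1 of the fibroblast list was detected on some.

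The start regions of 6 of the genes are shown: the 5 genes chosen by their changes, and Cyp1b1 as a reference for the aryl hydrocarbon receptor. Among them, Aadac and Ces1d were both lower after UVB, and Cyp2b21 and Cyp2f4 both had their lowest mean with betaine and UVB. Each window runs from 250 bases before the annotated start to 50 after it (RefSeq, GRCr8), 5′ to 3′ on the strand of the gene. Capitals mark matches, on either strand, to the xenobiotic response element core GCGTG or to the CCAAT box; the AP-1 site TGANTCA, the antioxidant response element core TGACNNNGC and the TATA box TATAAA were searched as well.
Aadac, chr2:146313029-146313328, plus strand: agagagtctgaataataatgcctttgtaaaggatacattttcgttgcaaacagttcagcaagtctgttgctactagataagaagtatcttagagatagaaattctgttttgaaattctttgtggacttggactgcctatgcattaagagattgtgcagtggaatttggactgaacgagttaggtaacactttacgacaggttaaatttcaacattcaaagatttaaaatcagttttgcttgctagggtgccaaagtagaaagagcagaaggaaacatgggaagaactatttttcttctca
Ces1d, chr19:30046244-30046543, plus strand: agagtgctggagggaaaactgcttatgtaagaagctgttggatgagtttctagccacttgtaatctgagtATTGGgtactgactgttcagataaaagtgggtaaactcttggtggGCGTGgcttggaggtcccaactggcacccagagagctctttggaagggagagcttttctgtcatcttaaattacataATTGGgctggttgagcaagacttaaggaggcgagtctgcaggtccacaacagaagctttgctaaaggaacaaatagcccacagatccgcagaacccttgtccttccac
Cyp2b21, chr1:91042703-91043002, minus strand: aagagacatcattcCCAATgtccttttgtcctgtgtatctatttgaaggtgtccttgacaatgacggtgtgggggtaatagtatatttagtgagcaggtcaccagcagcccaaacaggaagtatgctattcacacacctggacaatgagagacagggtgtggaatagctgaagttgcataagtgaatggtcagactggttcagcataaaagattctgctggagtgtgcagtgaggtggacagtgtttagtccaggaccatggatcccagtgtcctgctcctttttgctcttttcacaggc
Cyp2f4, chr1:91543518-91543817, plus strand: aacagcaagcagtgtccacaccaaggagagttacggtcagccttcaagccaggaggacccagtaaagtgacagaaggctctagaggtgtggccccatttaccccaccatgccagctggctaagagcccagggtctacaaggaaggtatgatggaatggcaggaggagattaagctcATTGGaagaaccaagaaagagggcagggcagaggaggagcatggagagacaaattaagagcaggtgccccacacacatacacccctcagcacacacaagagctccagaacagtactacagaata
Upb1, chr20:13242967-13243266, minus strand: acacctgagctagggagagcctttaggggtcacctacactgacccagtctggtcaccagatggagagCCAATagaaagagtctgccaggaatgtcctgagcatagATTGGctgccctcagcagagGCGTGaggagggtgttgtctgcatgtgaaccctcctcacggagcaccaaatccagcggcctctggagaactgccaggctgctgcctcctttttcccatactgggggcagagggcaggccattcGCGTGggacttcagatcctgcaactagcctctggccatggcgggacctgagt
Cyp1b1, chr6:21094315-21094614, plus strand: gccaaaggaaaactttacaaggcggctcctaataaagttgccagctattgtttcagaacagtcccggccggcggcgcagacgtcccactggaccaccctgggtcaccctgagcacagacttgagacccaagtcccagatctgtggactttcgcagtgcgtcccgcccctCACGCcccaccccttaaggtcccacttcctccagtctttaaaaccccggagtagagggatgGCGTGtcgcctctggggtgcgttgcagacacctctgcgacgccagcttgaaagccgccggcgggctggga

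The window of Aadac held none of the 5 motifs, and its GC content of 35.7 percent compares with a median of 51.7 percent over all 33469 windows. That of Ces1d held 1 GCGTG core and 2 CCAAT boxes, those of Cyp2b21 and Cyp2f4 held 1 CCAAT box each, and that of Upb1 held 2 GCGTG cores and 2 CCAAT boxes. Cyp1b1 had 2 GCGTG cores and 19 CG pairs, against 1 CG pair each in Cyp2b21 and Cyp2f4 and a median of 7 over all windows. None of these 6 windows held the AP-1, antioxidant response or TATA letters. Of all windows, 29.7 percent held GCGTG, 37.5 percent CCAAT, 14.2 percent TATAAA, 12.1 percent the antioxidant response element core and 7.33 percent the AP-1 site. Windows were found for 8 of the 10 genes. One of the 2 windows of Ephx1 held 2 AP-1 sites, 1 antioxidant response element core and 2 CCAAT boxes, and these overlapped each other in part. The window of Dpyd held 2 GCGTG cores. No matches overlapped in the 6 windows shown.

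**Figure D1:**
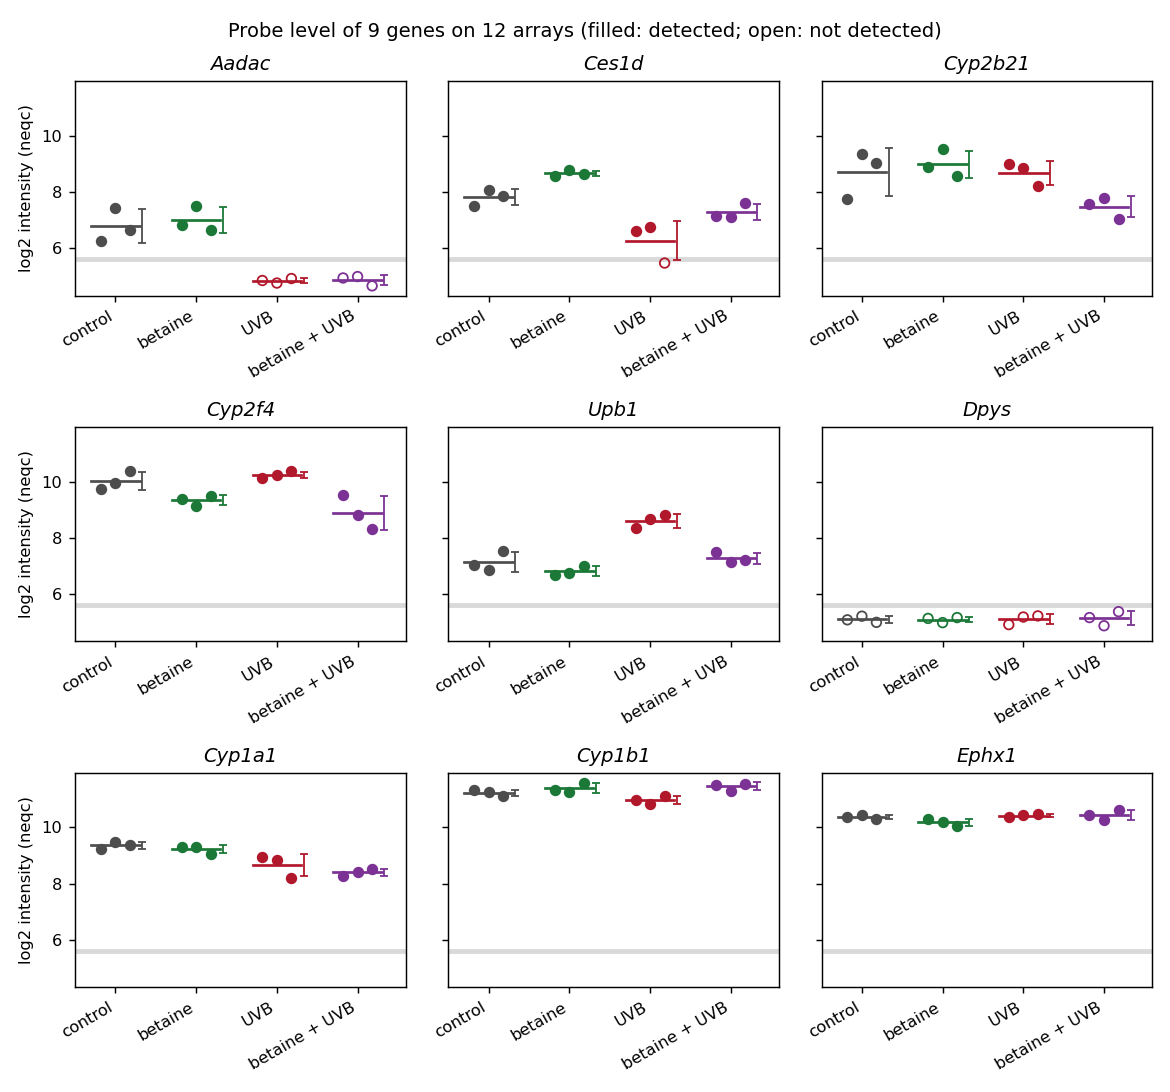
Log2 intensity (neqc) of the 9 genes with a probe on the 12 arrays, by group; each point is 1 array, filled where the probe was detected, the line is the group mean, the bar the SD of 3 arrays, and the grey band the lowest detected levels of the arrays (5.55 to 5.64). Aadac lies below the band on all 6 irradiated arrays and Dpys on all 12.

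The esterases Aadac and Ces1d were lower after UVB, both without and with betaine. Aadac, a lipase-like enzyme of the endoplasmic reticulum that removes acetyl groups from drugs, was not detected on any of the 6 irradiated arrays. Its level was 6.28, 7.44 and 6.65 in the control cultures and 6.82, 7.52 and 6.67 in those with betaine. It was 4.86, 4.77 and 4.93 after UVB, and 4.95, 5.0 and 4.67 after betaine with UVB. Every unirradiated culture was therefore above every irradiated one. The measured difference was −1.94 ± 0.27 (SE, 3 arrays a group) for UVB vs control and −2.13 ± 0.27 for betaine + UVB vs betaine, on the background-corrected scale. Because the irradiated level is only a bound, Aadac was at least 2.28-fold and at least 2.65-fold lower on that scale. These bounds take the mean of the higher group against the lowest detected level of each irradiated array. Without background correction the differences were −1.25 and −1.39, and with the authors' processed values −0.49 and −0.54. Betaine made a measured difference of 0.21 ± 0.27 without UVB, with groups that overlap; left-out arrays turned it to −0.05 (without betaine B) and 0.54 (without control B). In bulk RNA, fewer cells of a type and less RNA per cell cannot be told apart.

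Ces1d, a carboxylesterase that hydrolyses drugs and stored triglycerides, was measured higher with betaine and lower with UVB. Its level was 7.51, 8.09 and 7.86 in the control cultures and 8.58, 8.77 and 8.63 with betaine. It was 6.61, 6.75 and 5.48 after UVB, where the third culture, UVB C, was not detected, and 7.14, 7.10 and 7.61 after both. From highest to lowest the groups ran betaine, control, betaine + UVB and UVB. Neighbours in that order did not overlap except control and betaine + UVB. The differences were −1.54 ± 0.28 for UVB vs control, 0.84 ± 0.28 for betaine vs control, 1.0 ± 0.28 for betaine + UVB vs UVB and −1.38 ± 0.28 for betaine + UVB vs betaine. Without UVB C, the betaine difference in irradiated cultures was 0.60, and the UVB difference −1.14. Betaine vs control and betaine + UVB vs UVB use different arrays, and their difference, the interaction, was 0.17 ± 0.40 and turned to −0.23 without UVB C.

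Of all tested genes, 14.5 percent had arrays that did not overlap in betaine vs control, 22.9 percent in UVB vs control, 28.6 percent in betaine + UVB vs UVB and 27.3 percent in betaine + UVB vs betaine. These shares hold for a single group set against another, and nothing is read from them for the 5 picked genes. For Aadac, Cyp1a1, Cyp2f4 and Upb1, joined groups are also described as not overlapping. No share over all genes was worked out for that. Of 9 tested keratinocyte markers, 1 passed in UVB vs control, where 4.96 percent of all genes passed. This was the basal keratin Krt15, which fell by 0.74 ± 0.14 (adjusted p = 0.00926, limma), and the list's median change was −0.07. In betaine + UVB vs betaine 0 of 9 passed, where 6.14 percent of all genes passed. There 3 of 9 had an unadjusted p under 0.05 (limma), against 20.3 percent of all genes, and the median change was 0. These counts are too small to set against the shares of all genes. On the linear scale of the normalized intensities, where bright members weigh most, the summed level of the keratinocyte list was 124340 to 128760 in the control cultures and 114760 to 119700 after UVB, 122200 to 122970 with betaine and 118320 to 121000 with both. The sum of the sebocyte list was 22236 to 26880, 18597 to 21794, 21278 to 22276 and 19892 to 21164 in the same order of groups. That of the hepatocyte list was 454.1 to 487.6, 471.7 to 505.3, 493.7 to 528.2 and 470.0 to 495.2. The part of these lists in the results was not tested.

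The other tested esterases passed in no comparison, but 10 genes are too few to set that count against the shares of all genes. Of the wider list of 22, 19 were on the array and 12 were tested. Besides Aadac and Ces1d, 0 of 10 passed in any comparison, where 4.96 percent of all genes passed in UVB vs control, 0.896 percent in betaine vs control, 0.887 percent in betaine + UVB vs UVB and 6.14 percent in betaine + UVB vs betaine (limma, adjusted p under 0.05). At an unadjusted p under 0.05 the counts were 2, 2, 1 and 5 of 10, where 17.7, 11.4, 17.0 and 20.3 percent of all genes passed. The median change of these 10 was 0.07 in UVB vs control, against −0.02 over all genes, and −0.15 in betaine + UVB vs betaine, against −0.01. Aadacl2, a relative of Aadac, was measured 0.04 ± 0.26 from control after UVB (adjusted p = 0.954), and −0.74 ± 0.26 in betaine + UVB vs betaine (adjusted p = 0.135). Pon3, a paraoxonase, was at −0.23 ± 0.21 and −0.56 ± 0.21 in those comparisons (adjusted p = 0.658 and 0.162).

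**Figure D2:**
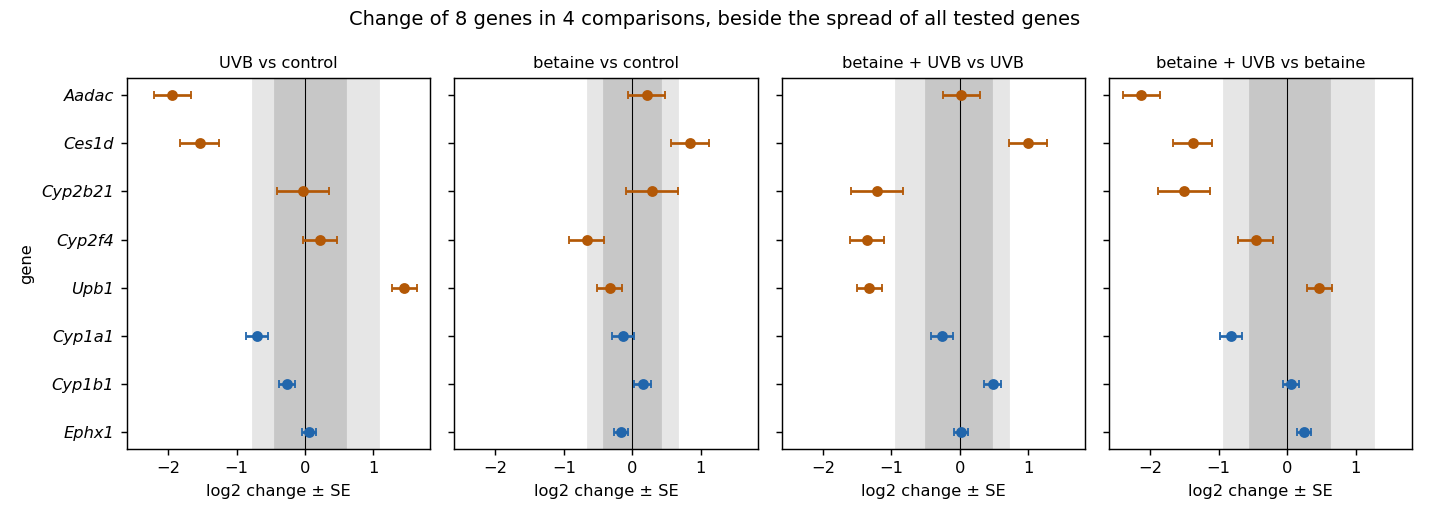
Log2 change ± SE (x axis) of the 8 tested genes (y axis) in 4 comparisons of 3 arrays a group; orange genes were picked for their changes and blue ones were not, and the dark and light bands hold the middle 95 and 99 percent of all 10937 genes. Aadac lies at −1.94 and −2.13 in the 2 comparisons of irradiated with unirradiated cultures, where its irradiated level was undetected, and Cyp2b21, Cyp2f4 and Upb1 lie between −1.21 and −1.35 in betaine + UVB vs UVB.

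Cyp2b21 and Cyp2f4 had their lowest group mean with both betaine and UVB, though for Cyp2f4 that group overlapped the betaine group. Cyp2b21 belongs to the CYP2B family, which oxidises many drugs. It was at 7.75, 9.34 and 9.04 in the control cultures, 8.88, 9.52 and 8.56 with betaine, 8.98, 8.85 and 8.21 after UVB, and 7.58, 7.78 and 7.06 after both. The combined group lay below every culture of the betaine group and of the UVB group, but control A, at 7.75, fell within its range. The difference was −1.21 ± 0.38 for betaine + UVB vs UVB, −1.51 ± 0.38 for betaine + UVB vs betaine and −0.03 ± 0.38 for UVB vs control. Control A carried much of the control spread (SD 0.84): without it UVB vs control was −0.51, betaine vs control went from 0.28 ± 0.38 to −0.20, and the interaction went from −1.49 ± 0.54 to −1.01. Without control B these were 0.29, 0.59 and −1.80.

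Cyp2f4, known in rat for the oxidation of naphthalene in the lung, was lower wherever betaine was present. Its level was 9.73, 9.95 and 10.37 in the control cultures and 9.39, 9.13 and 9.50 with betaine. After UVB it was 10.13, 10.23 and 10.36, and after both 9.53, 8.82 and 8.30. The groups without betaine overlapped each other, as did the groups with it, and no culture with betaine reached a culture without it. The difference was −0.67 ± 0.25 for betaine vs control, −1.35 ± 0.25 for betaine + UVB vs UVB, 0.22 ± 0.25 for UVB vs control and −0.46 ± 0.25 for betaine + UVB vs betaine. Betaine + UVB C set much of the last value, which was −0.17 without that culture and −0.78 without betaine + UVB A. The interaction was −0.68 ± 0.36, −0.39 without betaine + UVB C and −1.0 without betaine + UVB A. Of all genes, 0 percent passed for the interaction in limma (880 genes had an unadjusted p under 0.05, and 10 passed with array weights).

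Cyp2b21 and Cyp2f4 lie on chromosome 1 in the Cyp2 cluster. In GRCr8 order 12 genes stand between them, 8 of them of the Cyp2 family, of which 6 had a probe and 2 were tested. Cyp2b12, known in rat from sebaceous cells, was 8.51 ± 0.01 (SD, n = 3) in the control cultures, 8.83 ± 0.11 with betaine, 8.07 ± 0.30 after UVB and 8.44 ± 0.08 after both. Its betaine differences were thus upward, 0.32 ± 0.13 and 0.37 ± 0.13 without and with UVB (adjusted p = 0.361 and 0.192), and its UVB differences downward, −0.44 ± 0.13 and −0.40 ± 0.13 (adjusted p = 0.0741 and 0.0965), none past the threshold in limma. Cyp2a2 was near the detection limit, at 5.82 ± 0.35 in the control cultures, with no adjusted p under 0.674 in the 5 comparisons. Probe sequences were not used here, so whether a Cyp2b or Ces1 probe also binds a close relative was not tested.

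Cyp1a1 was lower in the irradiated cultures. Its level was 9.24, 9.49 and 9.36 in the control cultures, 9.31, 9.29 and 9.07 with betaine, 8.93, 8.85 and 8.21 after UVB, and 8.28, 8.42 and 8.52 after both. No irradiated culture reached an unirradiated one. It fell by 0.70 ± 0.16 in UVB vs control (1.62-fold, adjusted p = 0.0334, limma) and by 0.82 ± 0.16 in betaine + UVB vs betaine (1.76-fold, adjusted p = 0.0112). The first call ended without any 1 of the 3 control cultures, UVB C or betaine + UVB B, in a fit of the 2 groups alone and with no filter on dim probes (adjusted p up to 0.115; −0.47 without UVB C). The second ended without betaine + UVB A (adjusted p = 0.0529). Betaine gave −0.14 without UVB (adjusted p = 0.80, 95% interval −0.50 to 0.22) and −0.26 with it (adjusted p = 0.454, −0.62 to 0.10).

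Cyp1b1, which oxidises polycyclic hydrocarbons and oestradiol, passed in no comparison. It was at 11.32, 11.27 and 11.11 in the control cultures, 11.33, 11.27 and 11.58 with betaine, 10.97, 10.83 and 11.13 after UVB, and 11.52, 11.29 and 11.55 after both. The UVB group was the lowest, overlapping the control group through UVB C. The change was −0.26 ± 0.12 in UVB vs control (adjusted p = 0.265) and 0.48 ± 0.12 in betaine + UVB vs UVB (adjusted p = 0.0843), where the groups did not overlap. The latter passed with array weights (adjusted p = 0.0122) and without betaine C (0.0434). Ephx1, the microsomal epoxide hydrolase, varied least of the 8 tested genes, with group means of 10.35 in control, 10.18 with betaine, 10.42 after UVB and 10.43 after both. All neighbouring groups overlapped; the largest change, 0.25 ± 0.10 in betaine + UVB vs betaine, had an adjusted p of 0.198 and a 95% interval of 0.03 to 0.48.

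Of the aryl hydrocarbon receptor pathway, Cyp1a1, Ahrr, Aldh3a1 and Arnt passed in at least 1 comparison. Of 11 listed, 9 were tested. At an unadjusted p under 0.05 (limma), 4 of 9 passed in UVB vs control and 2 in betaine vs control. In betaine + UVB vs UVB 5 passed, and in betaine + UVB vs betaine 2. Of all genes, 17.7, 11.4, 17.0 and 20.3 percent passed in that order. In UVB vs control 2 of 9 fell, Cyp1a1 and Ahrr, with none higher, where 4.96 percent of all genes passed; in betaine + UVB vs betaine 1 of 9 fell, Cyp1a1, where 6.14 percent passed. The list's median change was −0.21 and −0.16 in these comparisons, against −0.02 and −0.01 over all genes. Ahrr was at 8.15, 8.08 and 8.08 in the control cultures and 7.54, 7.41 and 7.18 after UVB, and fell by 0.73 ± 0.16 (adjusted p = 0.0205), a call that ended without any 1 of the control cultures, UVB B or UVB C (adjusted p up to 0.0881). In betaine + UVB vs UVB, 1 of the 9 genes rose and 1 fell, against 0.887 percent of all genes. Aldh3a1, an aldehyde dehydrogenase, rose by 0.85 ± 0.17 (adjusted p = 0.0379), but passed in only 9 of 21 alternatives (adjusted p up to 0.179). Arnt fell by 0.82 ± 0.13 (adjusted p = 0.0141), from 6.41, 6.24 and 6.19 after UVB to an undetected level on all 3 arrays with betaine, at least 1.61-fold lower on the background-corrected scale and −0.43 without background correction. Its call ended with the authors' processed values (−0.17) and without UVB A, UVB B or betaine + UVB C (adjusted p up to 0.084).

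Among the P450s of families 1 to 4 and their electron donors, 58 of 59 were on the array and 25 were tested. Besides Cyp2b21 and Cyp2f4, 1 of 23 passed in UVB vs control and 1 in betaine + UVB vs betaine, both times Cyp1a1. That share is near the 4.96 and 6.14 percent of all genes. In betaine vs control and betaine + UVB vs UVB 0 of 23 passed, near the 0.896 and 0.887 percent of all genes. An unadjusted p under 0.05 (limma) was found there for 3 and 3 of 23, near the 11.4 and 17.0 percent of all genes. The median change of these 23 was 0.04 and 0.03 in the betaine comparisons without and with UVB. It was −0.04 and −0.06 in the UVB comparisons without and with betaine. Por, the reductase, was at 0.09 after UVB alone and −0.06 in cultures with betaine. Cyp4f4, of a family of fatty acid hydroxylases, came nearest among those that did not pass in betaine + UVB vs betaine, at −0.74 ± 0.20 (adjusted p = 0.0541, limma). Its mean was 5.82 with betaine, near the lowest detected levels of the arrays (5.55 to 5.64), and 5.09 with both, below them. The size of this difference is therefore uncertain.

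**Figure D3:**
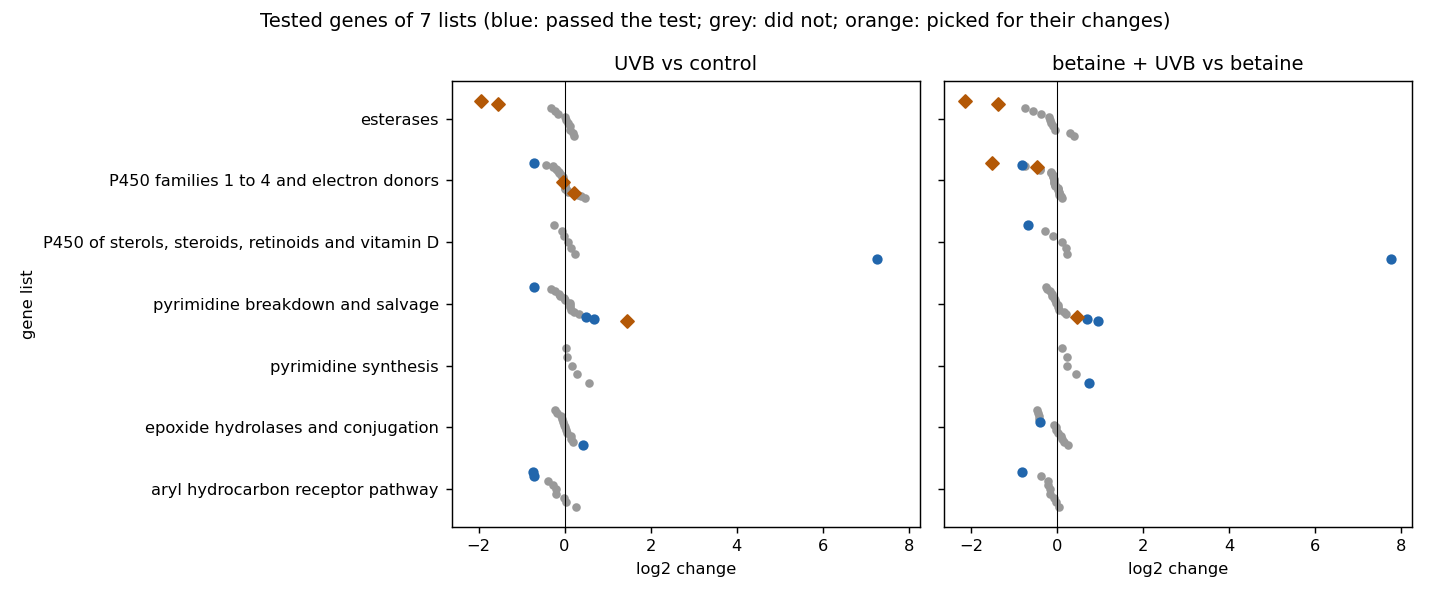
Log2 change (x axis) of every tested gene of 7 lists (y axis) in UVB vs control and betaine + UVB vs betaine; blue points passed the test, grey points did not, and orange diamonds were picked for their changes and not tested. Apart from Cyp24a1, at 7.26 and 7.77, and the orange genes, all points lie within 1 log2 unit of 0.

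The P450s of sterols, steroids, retinoids and vitamin D held the largest change. Cyp24a1, which inactivates vitamin D, was at 5.76, 6.03 and 5.85 in the control cultures and at 13.29, 13.23 and 12.90 after UVB, and rose by 7.26 ± 0.15 (adjusted p = 7.19e-11). It was undetected in all 3 betaine cultures and at 13.18, 12.91 and 12.60 after both, at least 157-fold higher on the background-corrected scale (7.77 ± 0.15, adjusted p = 3.2e-11). Without background correction these differences were 6.19 and 6.41, and with the authors' processed values 5.13 and 5.0, so the fold depends on the background. In betaine vs control it fell by 0.76 ± 0.15 (adjusted p = 0.0443; at least 1.21-fold on that scale), a call that held in 8 of 21 alternatives. Cyp11a1, which starts steroid synthesis, fell by 0.68 ± 0.15 in betaine + UVB vs betaine (adjusted p = 0.0173), with no call without betaine A, betaine B or betaine + UVB C (up to 0.085). Of the 7 tested, the other 5 passed in no comparison. Of all genes, 4.96 percent passed in UVB vs control, 0.896 percent in betaine vs control and 6.14 percent in betaine + UVB vs betaine. In betaine + UVB vs UVB 0 of the 7 passed, against 0.887 percent of all genes. Counts out of 7 are too small to set against these shares.

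Upb1, the last enzyme of pyrimidine breakdown, was higher after UVB alone than in any other group. Its level was 7.04, 6.85 and 7.55 in the control cultures, 6.68, 6.74 and 7.01 with betaine, 8.34, 8.66 and 8.80 after UVB, and 7.49, 7.14 and 7.20 after both. Every UVB culture was above every other culture, while the combined and control groups overlapped, as did control and betaine. The differences were 1.45 ± 0.18 for UVB vs control, −1.32 ± 0.18 for betaine + UVB vs UVB, 0.47 ± 0.18 for betaine + UVB vs betaine, whose groups did not overlap, and −0.33 ± 0.18 for betaine vs control. The interaction was −0.99 ± 0.26, and −0.84 to −1.19 with single cultures left out. Dpys, of the step before, was not detected on any of the 12 arrays, with group means of 5.10 to 5.14, and was not tested. Dpyd, which catalyses the first and rate-limiting step, was not analysed here.

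Of the 26 genes of pyrimidine breakdown and salvage, 21 were on the array and 16 were tested. Besides Upb1, 2 of 15 rose and 1 fell in UVB vs control, 1 rose in betaine + UVB vs UVB, and 2 rose in betaine + UVB vs betaine, where 4.96, 0.887 and 6.14 percent of all genes passed. Dtymk, the thymidylate kinase, rose by 0.49 ± 0.08 in UVB vs control (adjusted p = 0.00542) and by 0.69 ± 0.08 in betaine + UVB vs betaine (adjusted p = 0.00034), and passed in all 21 alternatives of each. Dctd, which deaminates dCMP, was at 7.81, 7.25 and 7.69 in the control cultures and 8.30, 8.12 and 8.38 after UVB; it rose by 0.68 ± 0.14 (adjusted p = 0.0163) and, with betaine present, by 0.95 ± 0.14 (adjusted p = 0.0013). The first of these calls ended without UVB A or UVB C and in a fit of the 2 groups alone (up to 0.0701). Nt5e, the ectonucleotidase CD73, which splits phosphate from AMP outside the cell, was at 9.77, 9.99 and 9.65 in the control cultures, 9.25, 9.07 and 8.97 after UVB and 9.84, 9.81 and 10.0 after both. It fell by 0.71 ± 0.11 in UVB vs control (adjusted p = 0.00353) and rose by 0.79 ± 0.11 in betaine + UVB vs UVB (adjusted p = 0.00905; 0.0527 without betaine + UVB C). Both comparisons share the UVB cultures.

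Of 5 tested genes of pyrimidine synthesis, 0 passed in UVB vs control (1 at an unadjusted p under 0.05) and 1 rose in betaine + UVB vs betaine, counts too small to set against the 4.96 and 6.14 percent of all genes. This was Cad, the enzyme of the first steps, by 0.74 ± 0.15 (adjusted p = 0.0106), and 0.0531 without betaine + UVB A. Of 13 tested epoxide hydrolases and conjugating enzymes, 1 rose in UVB vs control and 1 fell in betaine + UVB vs betaine, shares near those of all genes. Nnmt, which methylates nicotinamide, rose by 0.43 ± 0.10 in UVB vs control (adjusted p = 0.0299), and passed in 12 of 21 alternatives (up to 0.111). Ephx2, the soluble epoxide hydrolase, fell by 0.40 ± 0.09 in betaine + UVB vs betaine (adjusted p = 0.0154), and passed in 15 of 21 (up to 0.0719).

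The genes whose levels ran most like those of the picked genes over the 12 arrays are given as a description; the points share treatment groups. For Aadac these were Nubpl and LOC362350 (Pearson r = 0.96 each) and Gtdc1 (0.955), and for Ces1d Sybu (0.98), Rab30 (0.964) and Nbl1 (0.963). Those nearest to Cyp2b21 were Slurp1 (0.977), a secreted epidermal protein, Tob1 (0.974) and the keratin Krt23 (0.974). For Cyp2f4 no gene came closer than Ogfod1 (0.901), followed by Snx10 (0.888) and Wasf1 (0.887). Upb1 ran closest to Nnmt (0.966), then Tmem98 (0.957) and the spindle checkpoint gene Mad2l1 (0.952). Among the members themselves, Aadac and Ces1d had r = 0.79 over the 12 arrays and 0.17 after each group's mean was taken off. Aadac and Cyp2b21 had 0.64 and 0.79, and Ces1d and Cyp1a1 0.71 and 0.91. The latter pairs are named for their within-group values, the highest of all member pairs, which ran down to −0.66 (Cyp2b21 and Cyp1b1). Control A was the lowest control culture for both Aadac and Cyp2b21. UVB C was the lowest UVB culture for both Ces1d and Cyp1a1. Aadac was undetected on every irradiated array and Ces1d on UVB C, so all r values given for these genes rest in part on undetected levels.

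**Figure D4:**
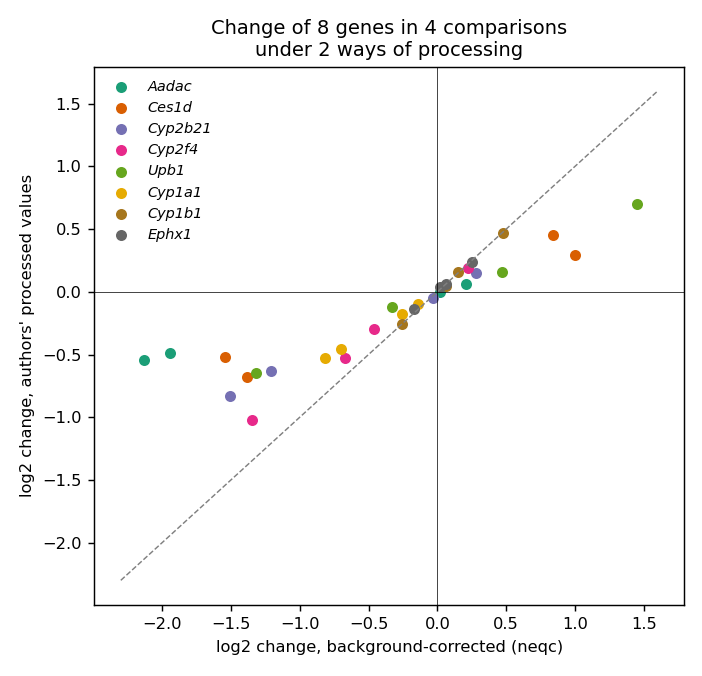
Log2 change of the 8 tested genes in 4 comparisons with background-corrected intensities (x axis, neqc) and with the authors' processed values (y axis); the dashed line marks equality. Aadac moves from −1.94 and −2.13 to −0.49 and −0.54, whereas Cyp1b1 and Ephx1 stay near the line.

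The sizes of the changes depended on the treatment of the background. With the authors' processed values, Aadac was −0.49 in UVB vs control and −0.54 in betaine + UVB vs betaine, Ces1d −0.52 and −0.68, Upb1 0.70 in UVB vs control and −0.65 in betaine + UVB vs UVB, and Cyp2b21 −0.63 in the latter. With quantile normalization but no background correction, Aadac was −1.25 and −1.39, and Upb1 1.12 in UVB vs control. Cyp2f4, with a difference of −1.35 in betaine + UVB vs UVB, gave −1.02 and −1.23 in these 2 ways. The signs of these values were the same in all 3. Cyp1a1 also passed in both UVB comparisons with the authors' values, at −0.46 (adjusted p = 0.0223) and −0.53 (adjusted p = 0.00787).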

How the data were processed

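Total RNA of 12 cultures was measured on Illumina RatRef-12 arrays. The deposited table gives 22523 probes, each with its signal intensity and its detection p-value on every array per the file headers, neither background-subtracted nor normalized. A second table deposited by the authors holds processed values, taken as log2 from their range; the method is not given in the sources used here, all array medians are 7.71, and 174 probes lack a value. The submitters' processing notes name R 2.11 and limma. Intensities were normalized with neqc of limma 3.58.1 (R 4.3.3; negative controls inferred from the detection p-values, offset 16); raw array medians ran from 95.9 to 117.7. Probes detected at p under 0.05 on at least 3 arrays were kept, 1 for each gene (the highest mean), which left 10937 genes. Names were updated from a RefSeq table (GRCr8): 10291 probes matched by symbol, 1642 by gene ID and 4978 by synonym.

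One limma fit of all 12 arrays, with a mean per group, gave each comparison; p-values were Benjamini-Hochberg adjusted over all genes, and the median SE was 0.12 log2. The interaction is the UVB effect with betaine minus that without it. Named were all 10 genes, every list gene called in a comparison, and for genes spanning at least 1 log2 unit the 3 most alike; Aadacl2, Pon3, Por, Cyp4f4, Cyp2b12 and Cyp2a2 were added after their values were seen. The genes and lists were chosen with earlier results of these data known. The letters A to C were not treated as pairs, because the labels do not say that a letter marks a shared batch. Correlations of same-letter deviations ran from −0.38 to 0.34, 8 of 18 over 0.1. With 3 cultures a group, they cannot settle whether the letters pair the cultures. Alternatives were other background corrections, scalings, filters, probe choices and fits, and leaving out each array; the fitting was tested on simulated data. One further gene list is not reported here.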

Additional observations from a re-analysis of the deposited data

How the results depend on the processing

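The genes passing numbered 542 in UVB vs control, 98 for betaine vs control, 97 for betaine + UVB vs UVB, 672 when betaine + UVB was set against betaine, and 0 for the interaction (880 genes at an unadjusted p under 0.05, lowest adjusted p 0.429). In that order, array weights gave 830, 430, 762, 2212 and 10. A fit of only the 2 groups compared gave 7 in betaine vs control and 318 in betaine + UVB vs UVB. With single cultures left out the counts ran from 315 to 709, 16 to 102, 26 to 238, 366 to 919 and 0 to 0; the lowest came without control B and UVB C (315 each) in UVB vs control, control A and betaine B (16 each) in betaine vs control, and betaine + UVB C in both comparisons of the combined group, and betaine C raised 97 to 238 when left out. The replicate block gave 440, 77, 80, 631 and 0; of the named calls Nnmt and Aldh3a1 ended under it. With arrays scaled by their medians, 32.1 percent of the genes passing in UVB vs control were higher, against 60 percent, and 16.2 against 40.8 percent in betaine vs control; the median of all genes was then −0.113 in UVB vs control and 0.106 in the interaction. No named gene that passed changed direction under any of these alternatives. The causes were not tested. The level of a probe below the lowest detected level, as for Aadac after UVB, is only a bound.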
